A study of Mus musculus with 2 samples.

Results

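The cells described here are 90 epithelial cells of the DoubleTg library that carried very high levels of the seminal vesicle secretory genes Svs2, Svs4 and Svs5. They were chosen by those measured levels. A cell counted as a member when it had over 200 and under 7000 detected genes and under 15% mitochondrial UMIs, at least 1 UMI of Epcam (an epithelial surface protein), 0 UMIs of Ptprc (the pan-leukocyte antigen CD45), and at least 500 UMIs of Svs2, Svs4 and Svs5 together per 10000 UMIs. A UMI, or unique molecular identifier, marks 1 captured RNA molecule. The 90 members were 1.06% (0.856 to 1.31) of the 8458 DoubleTg cells that met the same limits and the same Epcam and Ptprc criteria, out of 21564 cells in both matrices. They are called Svs-high cells below, because the data bore out the working label of seminal vesicle-type epithelium only in part, as the marker values show.

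Single-cell RNA-seq was measured on dissociated mouse prostate tumour tissue with 1 library per genotype. DoubleTg mice carried hHGFtg, a human HGF transgene expressed throughout the body, and hMETtg, a human MET transgene behind a stop cassette that PB-Cre4, a Cre recombinase under the probasin promoter, removes in prostate epithelium. TripleTg mice carried the same alleles as well as Ctnnb1 L(Ex3)/+, whose exon 3 is cut out by PB-Cre4 so that β-catenin is stabilised. The age of the mice and the number of animals behind each library are not given in the sources used here. Because each genotype was 1 library, there is no replicate check of any difference and no p-value is given. Intervals are at 95%, exact Poisson for sums, exact binomial for shares and conditional binomial for log2 ratios, and cover counting error only.

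The seminal vesicle is a paired gland whose epithelium secretes the bulk of the semen. In rodents its major products, the SVS proteins, form the copulatory plug once transglutaminase from the prostate cross-links them. The gland depends on androgen and grows out of the Wolffian duct, whereas the prostate beside it grows out of the urogenital sinus. Genes for several SVS proteins lie side by side with those of whey acidic protein (WAP) domain protease inhibitors on mouse chromosome 2.

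The 250 bases before the start of Svs5 and of Svs6 are shown because they are almost the same sequence and belong to a gene of the rule and to a family member outside it. They are RefSeq sequences of GRCm38.p6, read 5′ to 3′ on the strand of the gene, from chr2:164332515-164332764 and chr2:164316501-164316750, both on the plus strand. Capitals mark the motif AGAACA or its reverse complement TGTTCT, the core of an androgen response element.
Svs5: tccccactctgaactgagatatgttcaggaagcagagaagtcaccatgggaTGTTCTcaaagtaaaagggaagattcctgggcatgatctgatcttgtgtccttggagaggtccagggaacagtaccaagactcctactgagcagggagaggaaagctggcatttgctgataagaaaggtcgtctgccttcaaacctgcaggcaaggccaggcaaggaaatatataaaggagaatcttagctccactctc
Svs6: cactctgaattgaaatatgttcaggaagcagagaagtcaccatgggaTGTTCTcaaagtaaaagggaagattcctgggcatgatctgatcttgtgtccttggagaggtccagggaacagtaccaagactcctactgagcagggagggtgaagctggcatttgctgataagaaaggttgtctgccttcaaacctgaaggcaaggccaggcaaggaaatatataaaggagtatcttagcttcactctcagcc
Aligned at an offset of 4 bases, 237 of 246 bases (96.3%) were the same. Each window held 1 such motif, 199 bases before the start of Svs5 and 203 bases before the start of Svs6. Of 32536 windows of the same length, 16.0% held AGAACA on either strand. A TATAAA motif on the gene strand lay 28 bases before the start of Svs5 and 32 bases before that of Svs6, and 7.55% of the windows held one. The full palindrome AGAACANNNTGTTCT was in neither window and in 3 of all windows. The last bases of the Svs5 window lie inside the span that GENCODE gives the gene. A match to these letters is a description of the window and not a binding site. Between Svs5 and Svs6 transcripts there was no shared stretch of 90 bases.

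The threshold fell in a thinly filled range of the Svs2, Svs4 and Svs5 share. The members spanned 609 to 5864 per 10000 UMIs with a median of 3665, and the 8368 other Epcam+ Ptprc- cells had a median of 0.646. Just inside the threshold lay cells at 609, 879 and 991, and just outside it lay cells at 490, 401 and 364. In 336 Ptprc+ cells without Epcam, which should lack these genes, the median was 1.40 and the highest value 109. None of the 90 members shared a barcode with the TripleTg library, among 30 barcodes present in both, and the doublet caller Scrublet marked 0 members and 2.96% of the other cells.

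**Figure D1:**
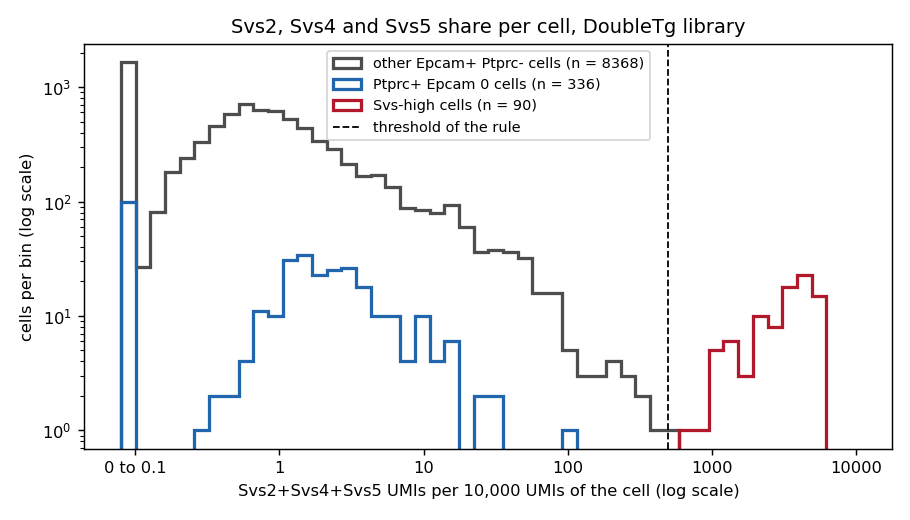
Histogram of the UMIs of Svs2, Svs4 and Svs5 per 10000 UMIs of each DoubleTg cell (log axis), with the number of cells per bin on a log axis, for the members, the other Epcam+ Ptprc- cells and the Ptprc+ cells without Epcam, and a dashed line at the threshold of 500. The 90 members lie between 609 and 5864, and only 6 cells lie between 250 and 500.

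The members fell into 70 cells with 8820 to 177025 UMIs and 20 shallow cells with 531 to 1681 UMIs. Over all 90 the median was 47523.5 UMIs and 4353.5 genes, against 21752 UMIs and 4003 genes in the other epithelial cells. The 20 shallow cells held 0.360% of the members' UMIs and so weighed little in summed values. Statements on how members vary are therefore made on the 70 deeper cells.

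Svs2, Svs5 and Svs4, the genes that chose the cells, took 38.2% of the 4415309 UMIs of the members and 0.0112% of those of the other epithelial cells. Svs2, the mouse counterpart of the semenogelins and the main clotting substrate, lay at chr2:164235929-164238466 and had 977943 UMIs. Svs5, at chr2:164332740-164334396, had 658183 UMIs, and Svs4, at chr2:164275952-164278459, had 50051. These levels are what the rule used and are a description. In the 70 deeper members Svs2 made up 32.8 to 80.0% of the UMIs of these genes (median 56.3%), Svs5 6.86 to 60.6% (median 38.7%) and Svs4 0 to 35.2% (median 1.39%). The 548 TripleTg cells of the same rule with 2000 UMIs or more, which were not matched in depth, had another make-up, with medians of 5.07% for Svs2, 42.3% for Svs5 and 52.02% for Svs4. This difference was between 1 library and another and was not tested.

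Other secretory products of the seminal vesicle were partly present and partly undetected. Levels from here on are counts per 1000000 (CPM) of the UMIs other than those of Svs2, Svs4 and Svs5, summed over the cells of a group, and ratios are log2 values of the members over the other Epcam+ Ptprc- DoubleTg cells. Since the cells were chosen on the same transcriptomes, these ratios describe the members and test nothing. Of 5548 genes that reached 20 CPM in the members or the other cells, 612 (11.0%) were at least 1 log2 unit higher in the members and 635 (11.4%) at least 1 lower, with a median of 0.05 over all of them. With all UMIs as the denominator, 216 genes were higher and 1621 lower, because the chosen genes then take up part of the total. That denominator shifted the median of all genes to −0.71.

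Pate4, whose secreted product is also known as SVS7 or caltrin, was present in 90 of 90 members. It lay at chr9:35607093-35611941 and stood at 60790 CPM in the members and 56.1 CPM in the other cells, a 1083-fold difference (log2 10.08, 10.06 to 10.11). In the 70 deeper members it ran from 47.1 to 1717 per 10000 UMIs other than those of the chosen genes, with a median of 647. After each cell was thinned to 5000 such UMIs, 70 of 70 members had a Pate4 UMI, against 5.63% of the other epithelial cells. Serpine2, the protease inhibitor nexin-1, was in all 70 deeper members, at 1670 CPM against 140 CPM (3.58, 3.53 to 3.62).

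**Figure D2:**
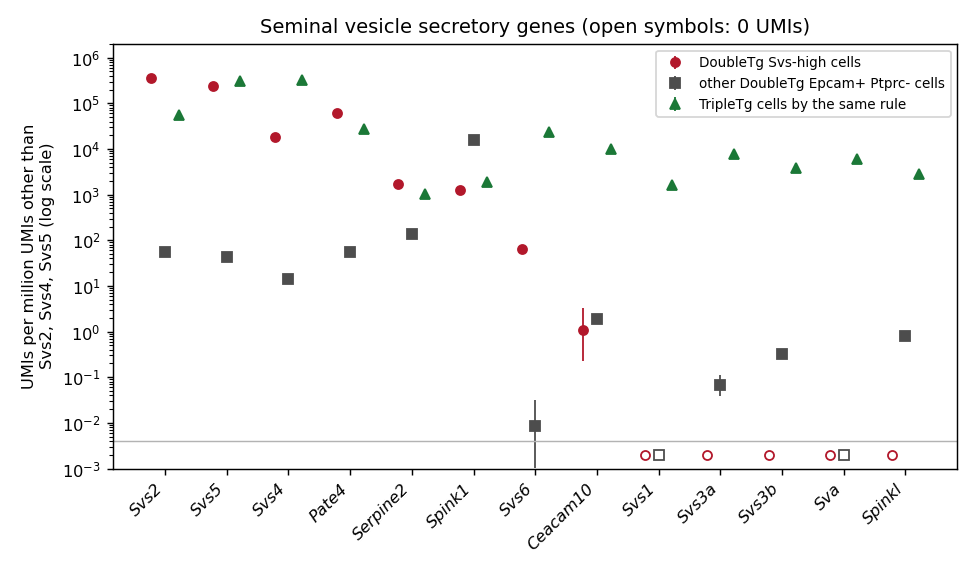
Levels of the 13 seminal vesicle secretory genes, in CPM of the UMIs other than Svs2, Svs4 and Svs5 (log axis), in the members (circles), the other DoubleTg Epcam+ Ptprc- cells (squares) and the TripleTg cells of the same rule (triangles), with 95% exact Poisson intervals as bars and genes at 0 UMIs as open symbols below the grey line. Pate4 was high in the chosen cells of both libraries, whereas Svs6 stood at 65.6 CPM in the DoubleTg members and 24003 CPM in the TripleTg cells.

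Svs6, a further clot protein gene with nearly the same upstream window as Svs5, had 179 UMIs in 21 members, or 65.6 CPM, and 2 UMIs in all other epithelial cells. After thinning, 8 of 70 members (11.4%, 5.07 to 21.3) had an Svs6 UMI. Svs5 was used to choose the cells and Svs6 was not, so their levels are not compared. Svs1, an amine oxidase-like major secretory protein, had 0 UMIs in the members, as did Svs3a, Svs3b, Sva and Spinkl, which allows up to 1.10 CPM (3 UMIs) for each. Ceacam10, a secreted glycoprotein of the gland, had 3 UMIs in 2 cells. In the TripleTg cells chosen by the same rule these genes were all present, at 1606 CPM for Svs1, 7606 for Svs3a, 3907 for Svs3b, 5930 for Sva, 2783 for Spinkl, 10001 for Ceacam10 and 24003 for Svs6. Svs3a and Svs3b share 347 stretches of 90 bases (28.9% and 29.9% of theirs), so their own levels are uncertain.

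Of the 10 seminal vesicle markers listed outside the rule, 4 reached 20 CPM, of which Pate4, Svs6 and Serpine2 were higher and Spink1 was lower, and 5 were undetected. Pate4 was in 90, Spink1 in 86, Serpine2 in 81, Svs6 in 21 and Ceacam10 in 2 of the 90 members. Spink1 was also in 99.2% of the other epithelial cells and 99.7% of Ptprc+ cells. After thinning to 5000 UMIs it was in 68.6% of members, 79.7% of the other epithelial cells and 93.1% of Ptprc+ cells. Its detection therefore does not set the members apart. At an equal 5000 UMIs per cell, Svs3a was in 43.1% of the TripleTg cells and in 0 of 70 DoubleTg members, which allows a share of up to 5.13%. Svs1 was in 23.8% and Ceacam10 in 41.9% of the thinned TripleTg cells. In the other epithelial cells of that library, Svs3a was in 6.90%, Svs1 in 1.96% and Ceacam10 in 9.42%. In its Ptprc+ cells, which should lack these genes, Svs3a was in 11.0% and Svs1 in 5.24%. How much of the TripleTg shares was background was not tested.

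Spink1, a trypsin inhibitor that accessory sex glands secrete, was lower in the members, at 1239 CPM against 15820 CPM (−3.67, −3.72 to −3.63). A single member held 78.9% of its UMIs, and without that cell the ratio was −5.88. The same cell held 10676 of the 13033 UMIs of Sbp, the spermine-binding protein of the ventral prostate. Neither value was typical of the Svs-high cells.

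Outside the listed secretory genes, the highest ratios over the 2914 genes reaching 50 CPM in the members or the other cells included the genes given next. Elf5, an ETS transcription factor of glandular epithelia, was in all 70 deeper members. It stood at 433 CPM in the members against 0.97 CPM in the other cells (8.80, 8.59 to 9.01) and had 0 UMIs in the Ptprc+ cells. In TripleTg the same contrast was 224 against 97.4 CPM, since Elf5 was also present in other TripleTg epithelial cells. Defb42, a beta-defensin of the male tract, stood at 1007 CPM against 2.94 CPM (8.42, 8.30 to 8.54). Cdo1, the cysteine dioxygenase that begins taurine synthesis, was in all 70 deeper members at 5.35 to 142 per 10000, and its sums were 3849 against 18.0 CPM (7.74, 7.69 to 7.79).

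Further genes among the 20 highest had other roles. Cyp4a12a, an androgen-dependent fatty acid hydroxylase in mouse liver and kidney, stood at 194 CPM against 0.44 CPM but was found in 47 of 90 members. Bpgm, the 2,3-bisphosphoglycerate mutase of the glycolytic side path, stood at 763 against 7.26 CPM (6.72). Ptgds, a prostaglandin D synthase, stood at 88.3 against 0.48 CPM (7.51). Alox5ap, which presents arachidonate to 5-lipoxygenase, stood at 140 against 1.18 CPM, a level close to the 112 CPM of the Ptprc+ cells. The uncharacterised transcript Gm17689 had the highest ratio, with 401 UMIs in the members and 6 in the other cells. The rest of the 20 were Svs6, Pate4, Nefh, Adam23, Ppp2r2b, Odam, Foxi1, Slpi, Glipr2, Shisa4, Abhd11os and Wfdc15b. Nefh and Slpi rested largely on 1 cell each, with 68.9% and 50.6% of their UMIs, and their ratios fell from 8.02 to 6.36 and from 6.05 to 5.08 without it.

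The cluster of SVS and WAP domain genes was not raised as a block. Among its 17 genes outside the rule, 8 reached 20 CPM, of which 4 were higher and 3 lower, with a median of 1.19. All 4 of the higher genes reached 20 CPM only in the members, so their direction was fixed by that filter. Wfdc15b was higher, at 834 against 17.0 CPM (5.62, 5.54 to 5.69), and so were Slpi and Svs6. Wfdc2, a WAP domain protein of many ducts, was lower, at 38.1 against 673 CPM (−4.14).

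Summed over the members, secretory genes of the prostate lobes were low, although some members carried much Sbp, Defb50, Msmb or Mmp7. All 12 listed genes reached 20 CPM and 12 were at least 1 log2 unit lower, with a median of −3.18. With equal weight per cell, which gives the shallow members more weight, the median was less negative. In the 20 shallow members Sbp had a median of 299.9 per 10000 UMIs other than the chosen genes, against 13.7 in the other epithelial cells. Pbsn, the androgen-dependent lipocalin probasin, stood at 101 against 1407 CPM (−3.80, −3.98 to −3.63). Tgm4, the prostate transglutaminase that cross-links SVS proteins, stood at 114 against 1142 CPM (−3.33), and 69.1% of its UMIs were in 1 member. Sbp UMIs per cell had a median of 29 in the deeper members, 26 in the other epithelial cells, 20 in basal-type cells and 18 in Ptprc+ cells. Against basal-type cells (Krt5 and Krt14 at 10 or more per 10000 UMIs) the list had a median of −0.39.

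**Figure D3:**
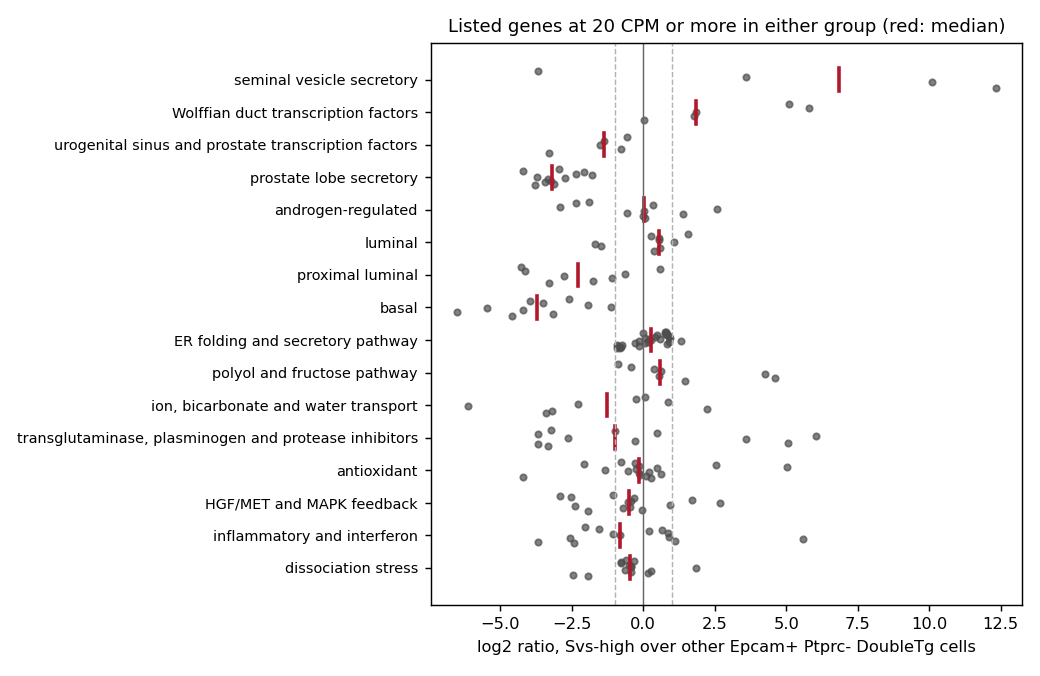
Log2 ratio of the members over the other DoubleTg epithelial cells for genes that reached 20 CPM in 16 of the lists, with each point 1 gene, the red bar the median of its list and dashed lines at −1 and 1. Prostate secretory and basal genes lie below 0, with medians of −3.18 and −3.73, and genes of the ER secretory pathway lie near it, with a median of 0.27.

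Most transcription factors listed for the Wolffian duct and for the prostate were too low to compare. Of 14 Wolffian duct factors, 5 reached 20 CPM in either group, of which 4 were higher and 0 lower, with a median of 1.83, and 6 of the 14 had 3 UMIs or fewer in the members. Of the 4, 3 reached 20 CPM only in the members, Hoxd9 and Hoxb7 among them, so their direction was fixed by that filter. Hoxd9 stood at 27.5 against 0.49 CPM (5.80, 5.36 to 6.24) and Hoxb7 at 32.2 against 0.94 CPM (5.11, 4.73 to 5.47). Gata2 stood at 117 against 34.0 CPM (1.78). Pax2, a regulator of that duct, was found at 17 UMIs in 15 members and stood at 6.23 against 0.064 CPM. Other factors of that list were at or near 0 in the members, with 0 UMIs of Hoxa9, Hoxa11 and Lhx1 and 1 of Hoxa10. Of the 12 factors of the urogenital sinus and prostate, 5 reached 20 CPM, 0 were higher and 3 lower, with a median of −1.36 that became −0.43 when each cell had equal weight, and 6 of the 12 had 3 UMIs or fewer in the members. Hoxb13, which marks the prostate and hindgut end of the axis, stood at 11.4 against 111 CPM (−3.29, −3.85 to −2.78), and 51.6% of its UMIs were in 1 member. It reached 20 CPM only in the other cells.

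Androgen-regulated genes had no common direction. Fkbp5, an immunophilin gene induced by steroid hormones, stood at 49.1 CPM in the members and 49.7 CPM in the other cells (−0.02, −0.27 to 0.23). Of 10 androgen-regulated genes that reached 20 CPM, 2 were higher and 3 lower, with a median of 0.01 that turned to −0.68 with all UMIs as the denominator.

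Basal keratins were lower in the members than in the other cells, whereas luminal genes had no common direction. Of 9 luminal genes that reached 20 CPM, 2 were higher, 2 lower and 5 between. Their median was 0.54 and their lowest ratio −1.70. Krt8 stood at 5644 against 4331 CPM (0.38) and Krt18 at 5222 against 3487 CPM (0.58), and both were in all 70 deeper members. With all UMIs as the denominator both ratios turned negative, to −0.31 and −0.11. Krt19 was lower, at 1423 against 3974 CPM (−1.48), and ran in single deeper members from 0 to 78.9 per 10000. All 10 basal genes that reached 20 CPM were lower, with a median of −3.73, among them Krt5 at 6.23 against 150 CPM (−4.59) and Krt15 at 10.6 against 960 CPM (−6.50). This median was −0.98 when the comparison group was restricted to luminal-type cells. Of the 20 lowest ratios, Krt15, Krt5, Krt17 and Col17a1 (a hemidesmosome collagen) were basal genes of this list. Others among the 20 were Lgals7, a galectin of stratified epithelium, at 4.397 against 198 CPM (−5.49), and the haemoglobin gene Hbb-bs, at 4 UMIs in the members against 178 CPM in the other cells, a transcript of red cells. None of the members was basal-type by its keratins. Genes of the proximal luminal cells were lower too, 6 of 8, with a median of −2.27.

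Genes of the secretory machinery stood close to their level in the other cells. Of 29 genes of ER folding and the secretory pathway, 1 was higher and 0 lower, with a median of 0.27. The 1 gene was Herpud1, an ER stress-induced membrane protein, at 671 against 269 CPM (1.32, 1.25 to 1.39). With all UMIs as the denominator the median of the list was −0.42, so the sign depends on whether the chosen genes are counted.

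Genes that convert glucose to fructose, the sugar of seminal plasma, were higher at both enzymatic steps when Svs2, Svs4 and Svs5 were left out of the denominator. Sord, the sorbitol dehydrogenase that makes fructose, stood at 393 against 20.5 CPM (4.26, 4.16 to 4.36) and was found in 69 of 70 deeper members. Akr1b3, the aldose reductase that makes its substrate, stood at 835 against 302 CPM (1.47, 1.41 to 1.53). Of 8 polyol and fructose genes that reached 20 CPM, 3 were higher and 0 lower. The third was Akr1b7, which reached 20 CPM only in the members. With all UMIs as the denominator Akr1b3 stood at 0.77, short of 1, Sord at 3.57 and the median of the list at −0.11.

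Ion transport and antioxidant genes were mixed. Car2, a carbonic anhydrase, stood at 213 against 45.8 CPM (2.22), and Slc12a2, a sodium-potassium-chloride cotransporter, at 116 against 1073 CPM (−3.21). Of 8 transport genes, 1 was higher and 4 lower. Gstm1, a glutathione transferase, stood at 616 against 105 CPM (2.56), and Sod3, the extracellular superoxide dismutase, at 22.4 against 0.69 CPM (5.02). Of 17 antioxidant genes, 2 were higher and 3 lower, with a median of −0.15. Over all genes compared, 11.0% were higher and 11.4% lower.

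Lcn2 was the most raised of 13 inflammatory and interferon genes, of which 2 were higher and 6 lower. This siderophore-binding lipocalin stood at 6823 against 142 CPM (5.59, 5.57 to 5.62) and at 13.2 CPM in Ptprc+ cells. Among proteases and their inhibitors, Plau, the urokinase activator of plasminogen, stood at 365 against 11.1 CPM (5.04), while 3 of the 11 genes of that list were higher and 5 lower. Among 14 dissociation-induced genes, 1 (Atf3, 1.86) was higher and 2 lower, beside 11.0% and 11.4% of all genes compared.

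A gene that reached 20 CPM in 1 of the 2 groups only could differ in no other direction. Among the genes called higher this held for Svs6 of the seminal vesicle list, both androgen-regulated genes, 2 of 3 proteases and inhibitors, 1 of 2 antioxidant genes and 1 of 2 inflammatory genes. Among the genes called lower it held for 7 of 10 basal genes, 4 of 12 prostate secretory genes, 2 of 6 proximal luminal genes, 3 of 4 transport genes and 4 of 6 inflammatory genes.

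Markers of other cell types that the dissociated tissue could hold were low or below their level in the other epithelial cells, with 3 exceptions. The 6 endothelial markers were all at or under 3 UMIs, and 4 of 6 smooth muscle markers and 4 of 8 fibroblast markers were too. In each of the latter lists 2 genes reached 20 CPM, the fibroblast marker Gsn among them, and all were lower in the members. Fibroblast markers summed to 163 CPM in the members and 832 CPM in the other epithelial cells. The exception among 10 immune markers was Cd52, at 2986 CPM in the members, 79.0 CPM in the other cells and 967 CPM in Ptprc+ cells, and it was in all 70 deeper members. Summed over the 9 immune markers other than Ptprc, the members stood at 3038 CPM, the other epithelial cells at 239 and the Ptprc+ cells at 27200. Of these 9, 7 were at or under 3 UMIs in the members, and Ptprc was at 0 by the rule. Cd52 is known from epithelium of the male tract as well as from lymphocytes. The exceptions among 10 markers of epididymis and vas deferens were Crisp1, a sperm-coating protein, with 1322 UMIs in 9 members and 55.2% of them in 1 cell, and Akr1b7, an aldo-keto reductase, with 75 UMIs (4.62). The other 8 of that list were at 0 UMIs.

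The 90 members did not all look alike. Cut at the median share of Svs2, Svs4 and Svs5, the 45 cells above it had a median of 52973 UMIs and the 45 below it 30401, and 4 and 16 of them were shallow. Crisp1 lay wholly below the cut, with 0 and 1322 UMIs. Psca, a surface protein of proximal and urothelial-like cells, had 14 UMIs above and 443 below the cut, of which 55.3% were in 1 cell. Timp2, a metalloproteinase inhibitor, had 5 and 115 UMIs. Above the cut, Gm17689 had 353 UMIs against 48 below, Fgfbp1, a carrier of fibroblast growth factors, 641 against 136, and Odam 121 against 25. The genes named here are among the ends of this split, which was made on the values of the rule, and are a description.

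Across the 70 deeper members, levels of Svs2 and Svs5 went together (Spearman rho 0.86) and Pate4 went with both (0.74 with Svs2 and 0.78 with Svs5), whereas Svs4 did not (−0.25 with Svs2). The share of Svs2, Svs4 and Svs5 went with Cdo1 (0.73) and against Krt19 (−0.59). These coefficients are across cells of 1 library that share denominators and are given as descriptions.

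**Figure D4:**
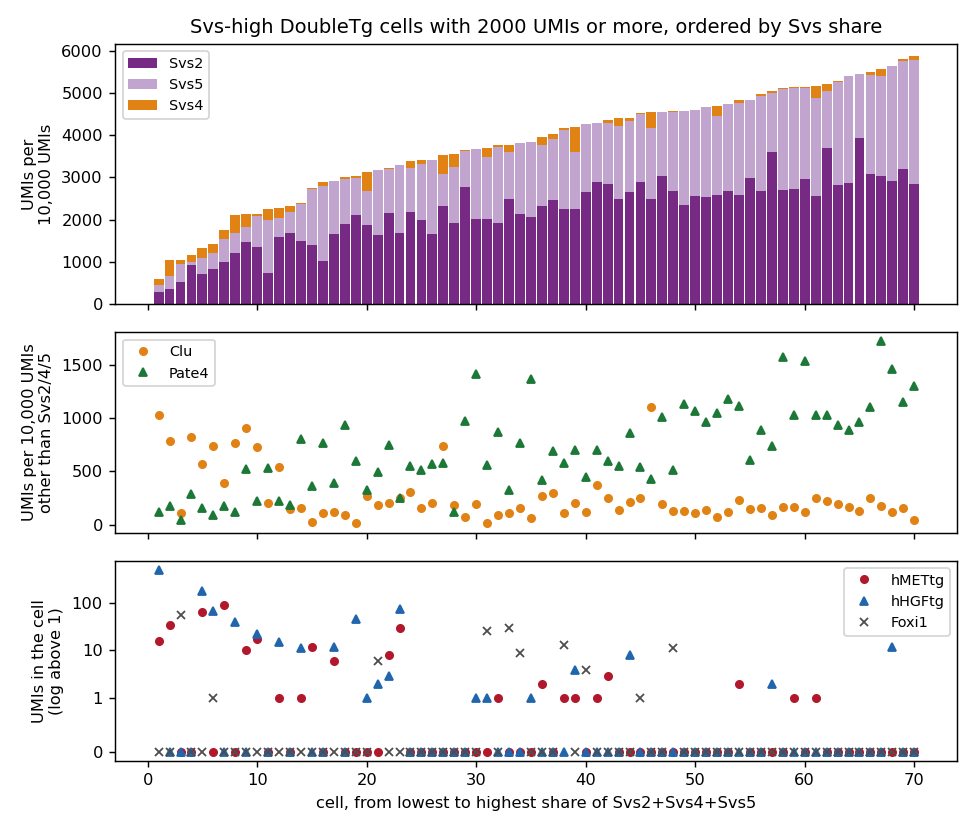
The 70 deeper members ordered along the horizontal axis by their share of Svs2, Svs4 and Svs5, with the UMIs of these genes per 10000 UMIs as stacked bars (top), Clu and Pate4 per 10000 UMIs other than these genes (middle) and UMIs of hMETtg, hHGFtg and Foxi1 in each cell (bottom, log axis above 1). Pate4 is present in all 70 cells, and the 10 cells with at least 5 hMETtg UMIs lie between 609 and 3305 per 10000.

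A total of 3 subsets seen in these values are described after the fact, and they overlap in part. In 13 deeper members Svs4 made up at least 10% of the UMIs of Svs2, Svs4 and Svs5. In these cells Clu, the secreted chaperone clusterin, had a median of 738 per 10000 against 154 in the other 57, Pate4 a median of 219 against 769, and Krt19 a median of 36.4 against 1.90. Their share of the chosen genes was lower, with a median of 2120 against 4354 per 10000. The share of Svs4 chose these cells and is not a result.

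A further subset of 10 deeper members contained Foxi1, the transcription factor of ionocytes and of acid-secreting cells of kidney and epididymis, with 155 UMIs in all. All 10 also contained Atp6v1g3, a subunit of the proton pump of such cells, which was in 6 of the 60 other deeper members. Atp6v0d2, another subunit, was in 9 of the 10 and in 3 of the 60. The anion exchanger gene Slc26a3 was in 7 and in 2. Their share of Svs2, Svs4 and Svs5 (median 3793 per 10000, 1047 to 4563) lay within the range of the rest, whose median was 3996. Scrublet marked none of them. In TripleTg, Foxi1 had 0 UMIs in the 608 cells of the same rule.

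The third subset was defined by the transgene. At least 5 UMIs of hMETtg were found in 10 deeper members, which held 282 of the 300 hMETtg UMIs of all Svs-high cells. Their share of Svs2, Svs4 and Svs5 was 609 to 3305 per 10000 (median 2135), against a median of 4274 in the other 60. They also had more Defb50 (7151 against 153 CPM), Msmb (2152 against 69.7 CPM) and Mmp7 (3931 against 166 CPM), which are secreted products of prostate epithelium, and more Krt19 (median 38.7 against 1.91 per 10000). A single cell held 47.6% of the Msmb UMIs and 47.9% of those of Mmp7. Msmb was uneven among the 10 cells, with 579, 447, 123 and 51 UMIs in 4 of them and 0 to 7 in the other 6. They had no Foxi1 UMI.

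At 5000 UMIs per cell, hMETtg was detected in 11 of 70 members (15.7%, 8.11 to 26.4), with 20 shallow members left out, and in 26.7% of all 90 without thinning. The thinned share was 49.5% in the other epithelial cells, 65.1% in luminal-type cells and 10.3% in basal-type cells. In Ptprc+ cells, where the transgene should be absent, it was 8.66% (5.63 to 12.6), an interval that overlaps that of the members. By level, hMETtg stood at 110 CPM in the members, 425 CPM in the other cells (−1.95, −2.12 to −1.79), 75.3 CPM in basal-type cells and 15.5 CPM in Ptprc+ cells. The summed level of the members was above that of Ptprc+ cells, and it came from few cells. In TripleTg the members of the same rule stood above the other cells, at 212 against 26.9 CPM (2.98).

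The ubiquitous transgene hHGFtg was detected in 22.9% (13.7 to 34.4) of the thinned members, 43.8% of the other epithelial cells and 5.42% of Ptprc+ cells. Its sums were 359 and 371 CPM (−0.05, −0.14 to 0.04). A single member held 49.6% of the hHGFtg UMIs, and without it the ratio was −1.001. Mouse Met stood at 77.7 against 126 CPM (−0.69) and mouse Hgf at 37.7 against 52.5 CPM, and reads shared with the human transgenes were not separated here. Of 14 genes of HGF/MET signalling and its feedback, 2 were higher and 5 lower, with a median of −0.51. Both of the higher genes reached 20 CPM only in the members, and 2 of the lower ones only in the other cells.

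Few Wnt target or cycling genes were detected at 20 CPM. Of 12 Wnt targets, 2 reached 20 CPM, and Ccnd1, cyclin D1, was higher at 333 against 91.7 CPM (1.86, but −0.55 against basal-type cells alone). With at least 3 of 15 proliferation genes detected at 5000 UMIs, 0 of 70 members were cycling, which allows a share of up to 5.13%, against 0.756% of the other epithelial cells. Without thinning, 4 of 90 members (4.44%, 1.22 to 11.0) and 6.45% of the other cells met that criterion. A difference in cycling was not detectable with this number of cells.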

How the data were processed

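Single-cell libraries of prostate tissue from DoubleTg and TripleTg mice (1 each) were made with 10x Genomics 3′ v3 chemistry after collagenase and TrypLE dissociation. The deposited matrices hold raw UMI counts that the authors made with Cell Ranger (6.0.2 in the submitters' processing notes; the header of the DoubleTg matrix names another release) on mm10 with transgene sequences added. Ambient RNA was not removed. The study's limits on genes and mitochondrial UMIs were applied here to the DoubleTg matrix and kept 10598 of its 12072 cells. Both counts are above those the study states for this library, so the cells are not the study's filtered set.

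UMIs were summed per group with Python 3.11.15, NumPy 2.4.6, pandas 2.3.3 and SciPy 1.17.1, and divided by the UMIs other than Svs2, Svs4 and Svs5 to give CPM. Sums under 3 UMIs were set to 3 for ratios. Genes at 20 CPM in either group were compared and a log2 ratio of at least 1 or at most −1 counted as higher or lower. Basal-type cells had Krt5 and Krt14 at 10 or more per 10000 UMIs, and luminal-type cells under 1 with at least 1 Krt8 UMI. Doublets were marked with Scrublet in scanpy 1.11.5 and kept. Cells were thinned without replacement to 5000 UMIs. TMM factors came from edgeR 4.0.16. Steps were tested on simulated counts. Gene spans are from GENCODE mouse release M21 on GRCm38.

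The members and gene lists were chosen with earlier results of these data known. The text names members of the lists, the 20 highest and 20 lowest ratios at 50 CPM and the 10 at each end of the cut at the median share. Genes of the 3 later subsets were chosen after their values were seen. Because each group is 1 library, no test was run. Some genes of the lists are counted but not reported here by name. The split of members by Krt5 and Krt14 could not be run, as 0 members were basal-type.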

Additional observations from a re-analysis of the deposited data

Results flagged for a closer look

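A total of 5 gene lists had medians of opposite sign in the same contrast in the 2 libraries, over genes reaching 20 CPM in both, and the differences were not tested. The SVS and WAP gene cluster stood at 2.65 in DoubleTg and −0.35 in TripleTg over 6 genes, and the Wolffian duct transcription factors at 1.78 and −0.48 over 3 genes. Of these, 3 and 1 reached 20 CPM in DoubleTg only in the members, which fixed their sign there. The transglutaminase, plasminogen and protease inhibitor list stood at −0.99 and 1.10, HGF/MET and feedback genes at −0.46 and 0.62, and inflammatory and interferon genes at −0.94 and 0.47. In the protease inhibitor and the HGF/MET list, 2 genes each reached 20 CPM in DoubleTg only in the members, which fixed the sign of those genes. In the inflammatory list 0 did. The median over all genes was 0.05 in DoubleTg and −0.25 in TripleTg.

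hMETtg was lower in the chosen cells of DoubleTg (−1.95) and higher in those of TripleTg (2.98). Spink1 was likewise lower in DoubleTg (−3.67) and higher in TripleTg (8.82). Neither difference was tested, and in each library the comparison cells also differ.

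Outside the rule, 10 DoubleTg cells without an Epcam UMI passed the threshold of Svs2, Svs4 and Svs5, with a median of 674.5 UMIs. A further 8 cells over the threshold had 7000 genes or more. Neither set entered a comparison.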

How the results depend on the processing

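The rule gave 96 members at a threshold of 250 and 87 at 1000 per 10000, 72 with at least 2 Epcam UMIs, 101 without limits on genes and mitochondrial UMIs and 90 without marked doublets. With all UMIs as the denominator, 216 genes were higher and 1621 lower, and medians were −3.88 for prostate secretory genes, −0.42 for ER genes, −0.84 for antioxidant genes, −0.15 for luminal genes, −0.11 for polyol genes, −1.16 for dissociation genes and 3.80 for the epididymis list. Against basal-type cells, 1163 genes were higher and 1099 lower, with medians of −0.39 for prostate secretory, 1.36 for luminal, −6.36 for basal, 0.45 for antioxidant, −0.86 for Wnt target and 6.47 for epididymis genes, and hMETtg stood at 0.55 and Ccnd1 at −0.55, on the other side of 0. Against luminal-type cells the basal median was −0.98 and Krt5 stood at 1.75, which follows from how luminal-type cells were defined. Equal weight per cell gave −0.43 for prostate transcription factors, −1.90 for prostate secretory genes, −0.89 for dissociation genes and −1.89 for smooth muscle genes. Thinning to 5000 UMIs gave 962 lower genes and an epididymis median of 4.74. At 5 CPM, 1113 genes were higher and 1307 lower, and the immune median turned to −1.56 as more genes entered. Without thinning the hMETtg share was 26.7%. Alternatives on the deeper members only, and without the member richest in Sbp or in the gene concerned, were chosen after seeing the data and reversed no list median. The androgen-regulated median, 0.01, fell below 0 under 6 alternatives. No paired analysis was possible because each genotype was 1 library. With 70 members at 5000 UMIs, a share of 0 allows up to 5.13% of cells with a UMI.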

Other observations

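Sbp UMIs per cell had a median of 13 in the 20 shallow members, 29 in the 70 deeper members and 18 in Ptprc+ cells. As a share of the UMIs other than Svs2, Svs4 and Svs5 this was a median of 299.9 per 10000 in the shallow members, 8.05 in the deeper ones and 21.9 in Ptprc+ cells.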
